A study of Mus musculus with 8 samples.

Results

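The proteins described here coat lipid droplets or act on them, and their genes were followed in mouse liver with and without *Agpat3*. The set has 10 genes: the perilipins *Plin1*, *Plin2*, *Plin3*, *Plin4* and *Plin5*, the CIDE genes *Cidea*, *Cideb* and *Cidec*, and *G0s2* and *Abhd5*, whose products regulate the droplet lipase ATGL. They were chosen by name, and their probes were found through the transcript each probe is listed for, which gave 14 of the 56605 probes of the array that are not controls. Of these, 12 probes of 8 genes were tested, out of 29069 probes and 22834 gene names. RNA came from the livers of 4 *Agpat3* wild-type (WT) and 4 *Agpat3* knockout (KO) mice, all male, of the C57BL/6 background and 10 weeks old. The KO lacks in the whole body, not in the liver alone, an acyltransferase that places docosahexaenoic acid into phospholipids. Each liver was hybridised to 1 one-color Agilent array. All 8 arrays shared 1 slide, with WT in row 1 and KO in row 2, so slide row and genotype cannot be told apart.

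A lipid droplet is a core of triglyceride and cholesteryl ester under a single layer of phospholipid. Perilipins sit on this surface and hold back lipases, CIDE proteins work at droplet contacts and pass lipid between droplets or onto lipoproteins, and ATGL starts the release of stored fatty acids. In liver, droplet coat genes are known to follow fasting and the fatty acid receptor PPARalpha. Whole liver was measured, so fewer cells of a type and less RNA per cell cannot be told apart. Values below are log2 signals after subtraction of the 75th percentile of the same array. They compare mice for 1 probe and do not rank genes against each other.

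*Plin4* and *Plin5* lie next to each other on chromosome 17, with 0 protein-coding genes between them, and their levels moved together from mouse to mouse, as described further on. Their promoters are therefore shown, from 250 bases before to 50 bases after the start, as RefSeq gives them for GRCm38.p6, 5′ to 3′ on the minus strand of the chromosome. The *Plin4* promoter lies at chr17:56109733-56110032 and the *Plin5* promoter at chr17:56117499-56117798. Capitals mark the TATA element TATAA, the box CCAAT and the nuclear receptor site AGGTCA, read on either strand, so that the box also appears as ATTGG, and none of the marked matches overlap. *Plin5* has a second listed start downstream, whose promoter is not shown.
Plin4: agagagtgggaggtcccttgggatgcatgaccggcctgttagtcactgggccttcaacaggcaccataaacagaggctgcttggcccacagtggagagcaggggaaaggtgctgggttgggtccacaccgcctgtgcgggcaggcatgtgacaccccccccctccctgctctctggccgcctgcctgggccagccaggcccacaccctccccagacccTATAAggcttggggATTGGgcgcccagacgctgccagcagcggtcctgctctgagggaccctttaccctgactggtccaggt
Plin5: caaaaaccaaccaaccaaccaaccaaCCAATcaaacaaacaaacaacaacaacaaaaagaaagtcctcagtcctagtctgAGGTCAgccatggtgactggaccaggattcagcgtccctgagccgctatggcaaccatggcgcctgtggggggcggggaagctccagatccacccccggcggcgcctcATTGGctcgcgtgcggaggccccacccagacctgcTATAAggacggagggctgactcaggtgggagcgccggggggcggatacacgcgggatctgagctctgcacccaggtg
Both hold TATAA shortly before the start, at position -32 in *Plin4* and -27 in *Plin5* (first base of the match, with the start base as 0). Of the 32851 mouse promoters of this length, 24.9% hold TATAA on either strand at any position, not only shortly before the start. CCAAT occurs in 37.4%. The letters AGGTCA, the core that nuclear receptors such as PPARalpha read, occurs in 16.3% of all promoters. Among the 9 members whose promoters were searched, which do not include *Cidea*, it occurs in *Plin2*, *Plin5* and *Abhd5*. The E-box CACGTG (7.2% of all promoters) occurs only in *Plin2* of these 9, and TCACNCCA, a form of the sterol response element (4.4%), in *Plin3*, *Cidec* and *Abhd5*. These matches are letters in a window and were not tested as binding sites.

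The labels were checked first. *Agpat3* lay between 5.65 and 5.88 in the 4 WT livers and between -0.58 and 0.02 in the 4 KO livers, a log2 fold change of -6.12 (SE 0.14, limma adjusted p = 4.46e-07).

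The droplet coat genes, by contrast, were not called between genotypes. A gene was called when its fold change exceeded 1.5 and its limma p, adjusted by Benjamini-Hochberg over all probes tested, was under 0.2. Of the 8 members tested, 0 were called higher and 0 lower, where 0.985% of all genes were called higher and 0.775% lower. By limma, 0 of the 8 had an unadjusted p under 0.05, a level that 13.5% of all genes passed, and an unpaired t test at the same level also gave 0. In 0 of the 8 did the WT and KO mice separate without overlap, which 9.03% of all genes did. These counts read each gene from its brightest probe, and a dimmer *Plin2* probe, given below, differs in both respects. The log2 fold changes ran from -0.50 in *Plin4* to 0.17 in *Abhd5*, with a median of 0.06 beside -0.03 over all genes tested. Of the 8, 6 lay above 0 and 2 below. At background rates this low, 8 genes are too few for a count of 0 to set them apart from other genes.

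**Figure D1:**
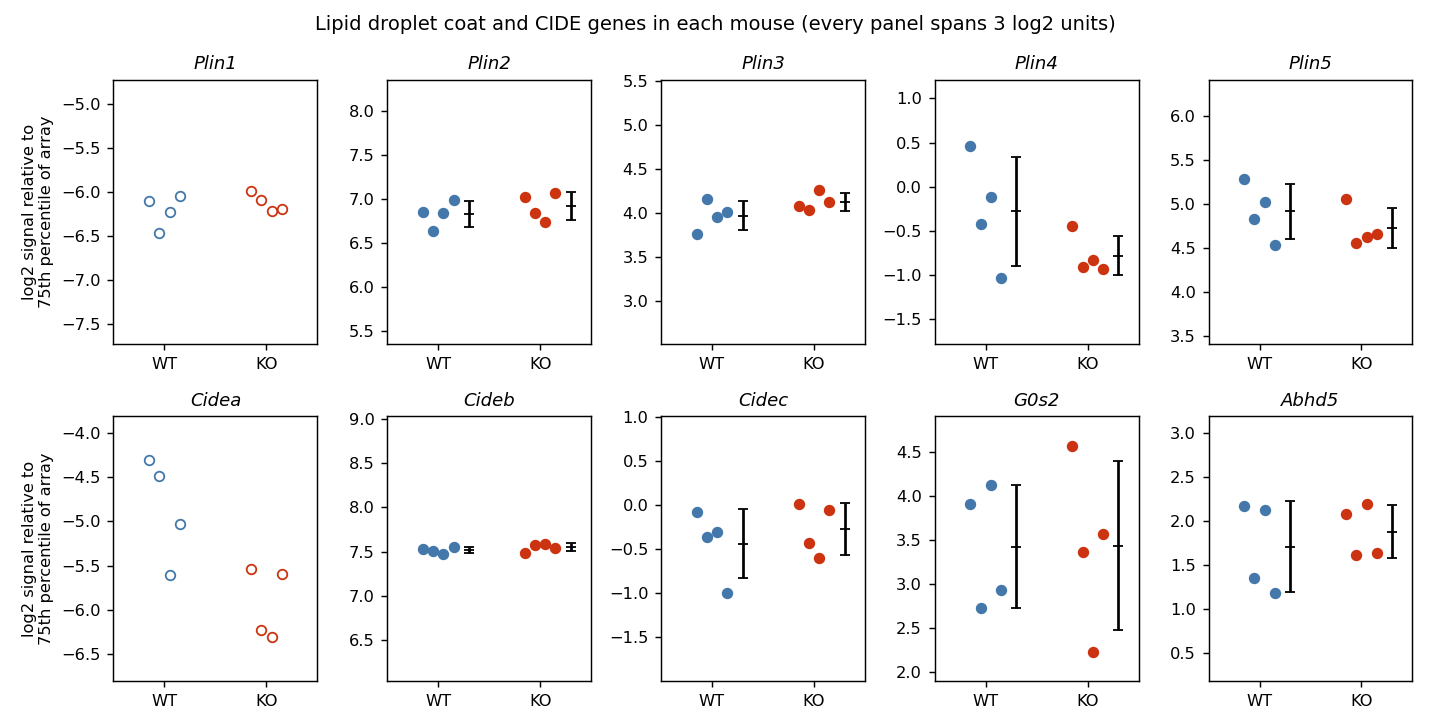
Signal of the brightest probe of each of the 10 genes in each mouse, as log2 minus the 75th percentile of its array, in WT (blue) and KO (red) livers, with mice 1 to 4 from left to right; black bars are the mean ± SD of 4 mice, and open circles mark genes below that detection limit on all 8 arrays. WT and KO points overlap in all 8 genes with filled circles, and *G0s2* has the widest spread of these 8.

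*Plin2*, the perilipin that coats most droplets of the hepatocyte, was measured by 2 probes. Its brighter probe read 6.85, 6.63, 6.85 and 6.99 in WT mice 1 to 4 and 7.02, 6.84, 6.74 and 7.07 in KO mice 1 to 4. The highest value was in a KO mouse and the lowest in a WT mouse, but the groups overlapped. The log2 fold change was 0.09 (SE 0.11, 95% interval -0.15 to 0.33, limma adjusted p = 0.768), so that the interval of the fold change ran from 0.90 to 1.26. The other *Plin2* probe read 2.58, 2.42, 2.40 and 2.56 in WT and 2.79, 2.60, 2.66 and 2.70 in KO. Here the KO values did not overlap with those of WT. The difference of this probe was 0.20 on the log2 scale (SE 0.08, 95% interval 0.03 to 0.37). Its exact permutation p was 0.0286, which is the smallest that 4 against 4 mice allow. The limma p was 0.028 unadjusted and 0.308 adjusted. The 2 probes correlated at r = 0.61 over the 8 mice, and neither was called.

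*Plin3*, a perilipin that moves between cytosol and young droplets, read 3.76, 4.16, 3.96 and 4.01 in WT and 4.08, 4.04, 4.27 and 4.12 in KO. WT mouse 1 was the lowest and KO mouse 3 the highest, and the remaining mice overlapped. KO differed from WT by a log2 fold change of 0.16 (SE 0.10, 95% interval -0.07 to 0.38, limma adjusted p = 0.550).

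*Plin4*, a perilipin of small lipid droplets best known from fat and muscle, gave the largest difference among the members. It read 0.46, -0.42, -0.12 and -1.03 in WT and -0.45, -0.91, -0.83 and -0.93 in KO. WT mice 1 to 3 were above all KO mice, mouse 2 only just so, while WT mouse 4 was below them all. The WT SD of 0.62 exceeded the KO SD of 0.23. Its log2 fold change was -0.50 (SE 0.29, 95% interval -1.15 to 0.15), a fold change of 0.71, with a limma adjusted p of 0.507 and an exact permutation p of 0.229. This value turned on WT mouse 4. Without it the log2 fold change was -0.75 and the gene was called lower (limma adjusted p = 0.197), the single call of a member in any of the settings tried. Without WT mouse 1 it was -0.26.

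*Plin5*, a perilipin of oxidative tissues that ties droplets to mitochondria, read 5.28, 4.83, 5.02 and 4.54 in WT and 5.06, 4.56, 4.63 and 4.66 in KO. Mouse 1 was the highest of its genotype in both groups, and the groups overlapped. This gave a log2 fold change of -0.19 (SE 0.17, 95% interval -0.59 to 0.20, limma adjusted p = 0.691). A second probe gave -0.17 (SE 0.19), and the probes followed each other at r = 0.97.

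*Plin1*, the perilipin of the large droplets of fat cells, was not well above background on any of the 8 arrays, and no fold change is given. The same was true of *Cidea*, a CIDE gene known from brown fat. Markers of fat cells were detected in part. Of the 9 white adipocyte genes with a probe, *Adipoq*, *Retn* and *Nnat* stayed below the same limit in all 8 livers, while *Lep*, *Adrb3*, *Aqp7* and *Fabp4* were well above background in all 8 and *Cfd* in 2 of each genotype. Of the 7 brown adipocyte genes, *Ucp1*, *Dio2*, *Cox8b* and *Zic1* stayed below it in all 8 livers, and *Elovl3*, *Cox7a1* and *Lhx8* were above background in all 8. The summed signal of the white adipocyte list, in multiples of the 75th percentile, was 6.91 to 8.94 in WT and 7.47 to 8.44 in KO. Within that list *Slc2a4*, the insulin-dependent glucose transporter, passed the filter through the KO arrays alone, with 1 of 4 WT arrays well above background. Its fitted log2 difference was 1.84 (SE 0.30, limma adjusted p = 0.0495). With normexp background correction it was 0.56, under the fold threshold. That setting adds an offset of 50 intensity units to every spot, which by itself shrinks log2 differences of dim probes. Neither the call of *Slc2a4* nor its size is fixed. Of the 5 white adipocyte genes tested, the other 4 had log2 fold changes below 0 and were not called. They were *Aqp7* (-0.34, SE 0.11, limma adjusted p = 0.255, no overlap between genotypes), *Lep* (-0.10, SE 0.09), *Adrb3* (-0.03, SE 0.16) and *Fabp4* (-0.0042, SE 0.14). The summed signal of the 7 brown adipocyte genes was 53.0 to 79.4 in WT and 21.8 to 57.0 in KO, but without *Elovl3*, a fatty acid elongase that liver also makes, it was 3.93 to 4.33 in WT and 3.86 to 6.28 in KO. *Elovl3* itself was not called (log2 fold change -0.98, SE 0.35, limma adjusted p = 0.280). The part of either list in the values of the droplet genes was not tested.

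*Cideb*, the CIDE gene of hepatocytes, needed to load triglyceride onto very low density lipoprotein, was the steadiest member. It read 7.53, 7.50, 7.48 and 7.55 in WT and 7.49, 7.58, 7.59 and 7.54 in KO. All 8 mice lay within 0.11 log2 units, a 1.08-fold span. Between genotypes the log2 fold change was 0.03 (SE 0.06, 95% interval -0.10 to 0.17, limma adjusted p = 0.849), and the interval of the fold change, 0.93 to 1.13, excludes the 1.5-fold threshold in both directions. The intervals of the brightest probes of *Plin2* (0.90 to 1.26) and *Plin3* (0.95 to 1.30) exclude it as well. A second, dimmer *Cideb* probe gave 0.09 (SE 0.06), and over the 8 mice the *Cideb* probes correlated at r = 0.25.

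*Cidec*, also called FSP27, which enlarges droplets by moving lipid from small to large ones, read -0.08, -0.37, -0.31 and -1.0 in WT and 0.01, -0.44, -0.61 and -0.06 in KO. WT mouse 4 was again the lowest, as for *Plin4* and *Plin5*. KO exceeded WT by a log2 fold change of 0.17 (SE 0.22, 95% interval -0.33 to 0.66, limma adjusted p = 0.794), and without WT mouse 4 it was -0.02.

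*G0s2*, the inhibitor of ATGL, differed most between mice of the same genotype. It read 3.91, 2.72, 4.12 and 2.93 in WT and 4.57, 3.36, 2.23 and 3.57 in KO, so that both the highest and the lowest value were in KO mice, numbers 1 and 3. The span over the 8 mice was 5.04-fold. Mean levels differed by a log2 fold change of 0.01 (SE 0.51) with a 95% interval of -1.15 to 1.17 and a limma adjusted p of 0.996. The data therefore leave room for a fold change between 0.45 and 2.25 for this gene, and its direction changed with the mouse left out, from -0.37 without KO mouse 1 to 0.41 without KO mouse 3.

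*Abhd5*, also called CGI-58, the co-activator of ATGL, read 2.18, 1.36, 2.12 and 1.18 in WT and 2.08, 1.61, 2.20 and 1.63 in KO. In both genotypes mice 1 and 3 were high and mice 2 and 4 low. The log2 fold change was 0.17 (SE 0.26, 95% interval -0.42 to 0.77, limma adjusted p = 0.828), and without WT mouse 4 it was -0.0047. A second probe gave 0.10 (SE 0.24) and the same order of high and low mice, with r = 0.95 between the probes.

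**Figure D2:**
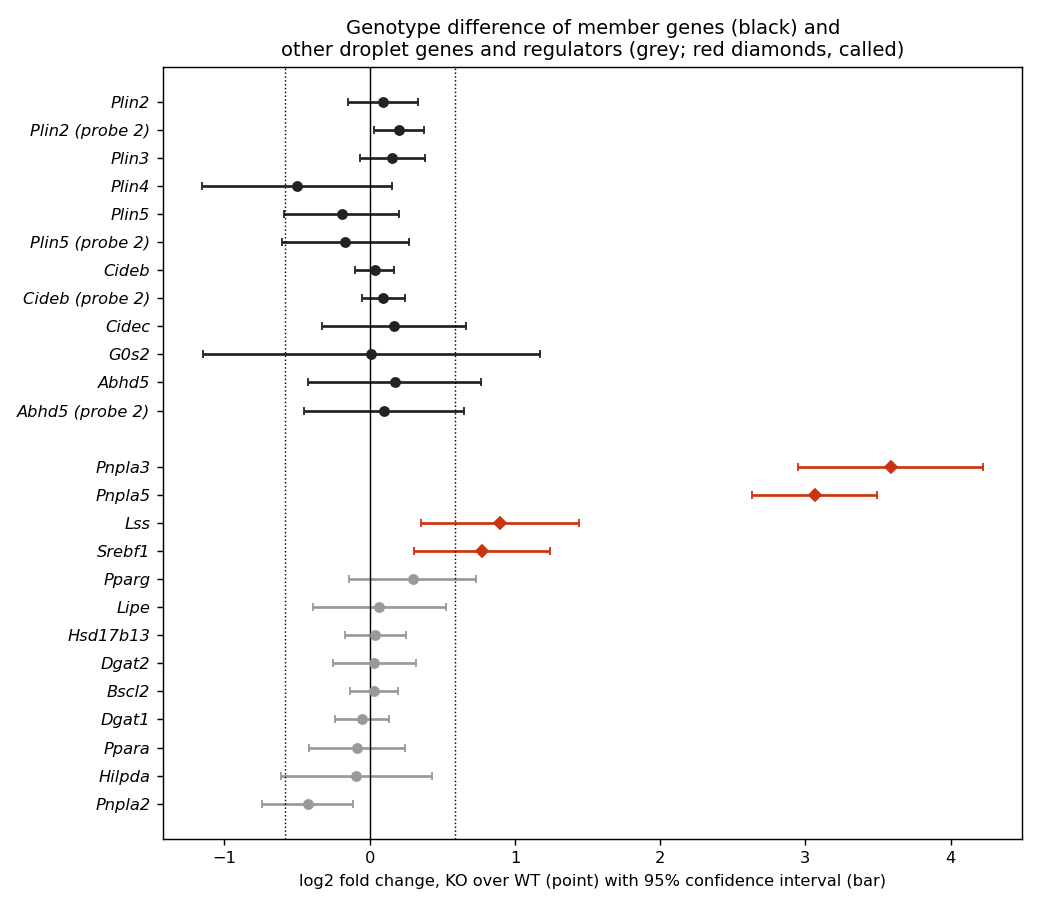
Log2 fold change of KO over WT (point) with its 95% confidence interval (bar), from limma over 4 WT and 4 KO mice, for the 12 member probes tested (black) and for other droplet genes and regulators (grey, or red diamonds where called); dotted lines mark a 1.5-fold change in either direction. Member probes lie between -0.50 and 0.20, while *Pnpla3* and *Pnpla5* lie at 3.59 and 3.06, or at 1.25 and 1.60 with normexp background correction and its added offset. *Pnpla3* passed the filter on dim probes through the KO arrays alone, so its point and interval rest on a WT level that is mostly background.

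Of the 8 members, 5 varied between mice more than the median gene did and 3 varied less. The SD within genotype, pooled over WT and KO, had a median of 0.31 over the 8 members and of 0.17 over all genes tested. It was 0.84 for *G0s2*, higher than in 99.0% of the genes tested, 0.47 for *Plin4*, 0.42 for *Abhd5*, 0.35 for *Cidec* and 0.27 for *Plin5*. It was 0.15 for *Plin2*, 0.14 for *Plin3* and 0.04 for *Cideb*, the last lower than in all but 0.973% of the genes. The feeding state of the mice at collection is not given in the sources used here.

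**Figure D3:**
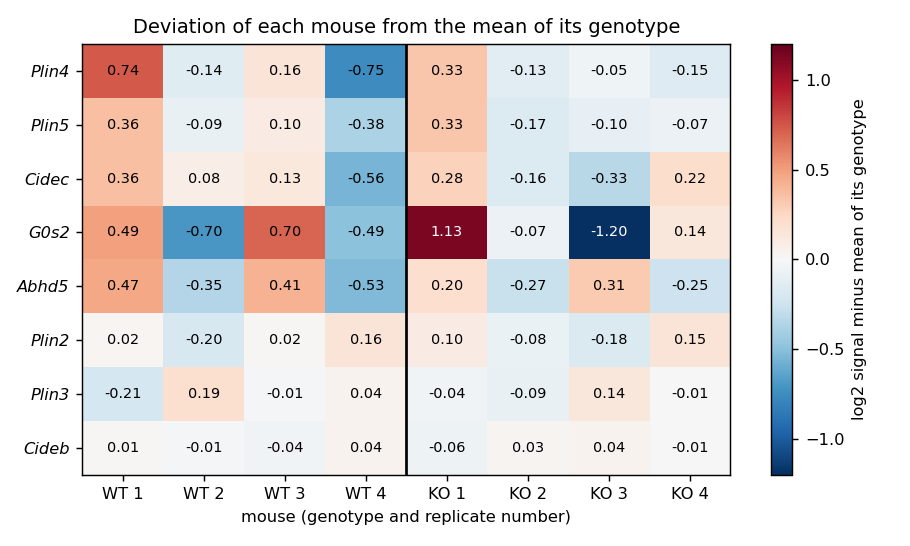
Deviation of each mouse (columns, WT left and KO right of the black line) from the mean of its genotype for the 8 members tested (rows), in log2 units, with red above and blue below the mean. *Plin4*, *Plin5*, *Cidec*, *G0s2* and *Abhd5* were above the mean in WT mouse 1 and KO mouse 1 and below it in WT mouse 4, while *Cideb* stayed within 0.06 of its mean.

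Across the 8 mice, 28 pairs of members were compared, a family of comparisons chosen after the values were seen. *Plin4* and *Plin5*, the neighbours whose promoters are shown above, were the pair that followed each other most closely, with Pearson's r = 0.95 (exact permutation p = 0.00134, 0.0375 after Benjamini-Hochberg adjustment over the 28 pairs). Spearman's rho was 0.86 (exact permutation p = 0.0107, adjusted 0.261), which did not pass the adjustment. Without the 2 mice farthest from the median of *Plin4*, WT 1 and WT 3, r was 0.90. Within genotypes, on deviations from the genotype means, r was 0.95, and with the other *Plin5* probe r over the 8 mice was 0.94. No other pair passed 0.05 after adjustment by either coefficient. On the same deviations *Plin5* and *Cidec* had r = 0.86, *Plin4* and *Abhd5* 0.83, *Plin4* and *Cidec* 0.82, and *Plin5* and *Abhd5* 0.78, given here as descriptions. *Plin3*, on the same chromosome with 7 protein-coding genes between it and *Plin5*, did not follow them (r = -0.63 with *Plin5*, exact permutation p = 0.0896, and -0.05 without WT mouse 1 and KO mouse 3). Values of a mouse share 1 array and its scaling. The permutation p-values take the 8 mice as exchangeable, which was not tested.

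**Figure D4:**
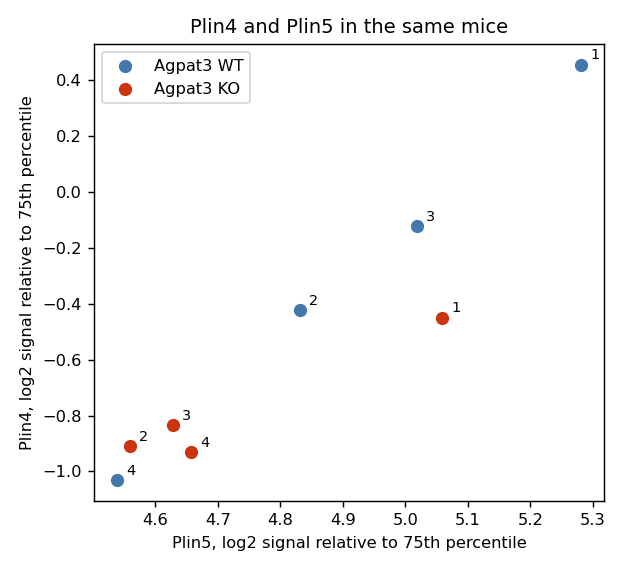
*Plin4* against *Plin5* in the 8 mice, both as log2 signal minus the 75th percentile of its array, with WT in blue, KO in red and the replicate number beside each point. The points rise together (r = 0.95), and WT mouse 1 is highest and WT mouse 4 lowest on both axes.

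Other genes of lipid droplets set the members in context. Of 62 such genes with a probe, 60 were tested, and 3 were called higher in KO and 0 lower, beside 0.985% and 0.775% of all genes. At an unadjusted limma p under 0.05 there were 14 of 60, 12 of them higher, beside 13.5% of all genes, of which 1224 were higher and 1858 lower. The median log2 fold change was 0.03 beside -0.03. Of the 3 called, *Pnpla3* drops out where all 8 arrays must be well above background, which leaves 2. Nothing particular to droplet genes is read from these counts. Among the 12 lipases, *Pnpla3*, a patatin-like lipase of droplets under the control of SREBP1, read -5.48, -4.12, -4.86 and -5.02 in WT, where 1 of 4 arrays was well above background, and -1.31, -1.09, -1.01 and -1.70 in KO. All KO mice were above all WT mice, and the gene was called higher with a fitted log2 difference of 3.59 (SE 0.28, limma adjusted p = 0.0026). It passed the filter on dim probes through the KO arrays alone, so its WT level is mostly background. The separation, SE and p of *Pnpla3* rest on that level, and the size of its change is not fixed. The call was also made with no filter (limma adjusted p = 0.0103), and with normexp background correction, where the difference was 1.25. Taken as the mean of the tested probes of *Pnpla3*, the difference was 4.39. These fits draw on the same WT arrays and are no separate support for the call. *Pnpla5*, a relative of it, rose by 3.06 (SE 0.19, limma adjusted p = 0.000924), from between -3.96 and -3.21 in WT to between -0.73 and -0.16 in KO, and was well above background on all 8 arrays. With normexp and its added offset the log2 fold change of *Pnpla5* was 1.60. ATGL itself, *Pnpla2*, the lipase on which *G0s2* and *Abhd5* act, read 3.53, 3.75, 3.97 and 4.05 in WT and 3.21, 3.56, 3.26 and 3.56 in KO. Its log2 fold change was -0.43 (SE 0.14, 95% interval -0.74 to -0.11, limma adjusted p = 0.244, exact permutation p = 0.0857), and it was not called. Hormone-sensitive lipase, *Lipe*, had 0.07 (SE 0.20). *Lipa*, the acid lipase of lysosomes, named after its values were seen, passed the p threshold with a log2 fold change of 0.32 (SE 0.06, limma adjusted p = 0.0905) but stayed under the fold threshold.

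Among the 15 genes of droplet formation tested, 0 were called, beside 0.985% of all genes called higher and 0.775% lower. At an unadjusted limma p under 0.05 there were 3, beside 13.5% of all genes. These 3, named after their values were seen, had the following log2 fold changes. *Acsl3* had 0.97 (SE 0.30, no overlap between genotypes), *Mogat1* 0.48 (SE 0.15) and *Gpat4* -0.29 (SE 0.12). The triglyceride synthases had log2 fold changes of -0.05 (*Dgat1*, SE 0.08) and 0.03 (*Dgat2*, SE 0.12), and seipin, *Bscl2*, of 0.03 (SE 0.07). Among the 25 other droplet proteins tested, 4 had an unadjusted limma p under 0.05, beside 13.5% of all genes. All 4 were higher in KO. Of these, *Sqle* (1.25, SE 0.46), *Rdh16* (0.56, SE 0.17) and *Hsd17b7* (0.53, SE 0.16), named after their values were seen, were not called. *Lss*, lanosterol synthase of the cholesterol pathway, was called higher, at 0.90 (SE 0.24, limma adjusted p = 0.168). Its call was lost when any 1 of WT mice 1 to 3 or KO mice 1 to 3 was left out (limma adjusted p = 0.231 to 0.343), while its log2 fold change stayed between 0.73 and 1.06 whichever mouse was left out. *Hilpda*, another ATGL inhibitor, had -0.09 (SE 0.23), and *Hsd17b13*, a hepatocyte droplet enzyme, 0.04 (SE 0.09). Of the 8 lipoprotein secretion genes 0 were called, to be read beside the same shares of all genes.

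Among 14 regulators 1 was called, beside 0.985% of all genes called higher and 0.775% lower. At an unadjusted limma p under 0.05 there were 3, of which 2 were higher, beside 13.5% of all genes. The called gene was *Srebf1*, which encodes SREBP1, higher at 0.77 (SE 0.20, limma adjusted p = 0.168). It read 6.08, 6.72, 6.63 and 6.14 in WT and 6.89, 6.87, 7.42 and 7.47 in KO, without overlap, but its call was lost whichever mouse was left out (limma adjusted p = 0.204 to 0.284), while its log2 fold change stayed between 0.67 and 0.88. *Ppara* had -0.09 (SE 0.14) and *Pparg* 0.30 (SE 0.19). Of 20 genes known as PPARalpha targets, the pathway with which coat genes are known to move in liver, 0 were called, 6 had an unadjusted limma p under 0.05 and 5 of these were higher, to be read beside the same 13.5% and the same split over all genes. Of the cell type lists, the 7 hepatocyte markers had 0 calls, beside 0.985% of all genes called higher and 0.775% lower. Their summed signal was 4796 to 5262 in WT and 4840 to 5053 in KO. Of 6 Kupffer cell markers 1 was called, to be read beside the same shares of all genes. This was *Marco*, a scavenger receptor, lower in KO by a log2 fold change of -1.22 (SE 0.25, limma adjusted p = 0.0983). The call was lost without WT mouse 3 (log2 fold change -1.06, limma adjusted p = 0.212) or KO mouse 2 (-1.21, limma adjusted p = 0.216). It was also lost with no filter on dim probes (limma adjusted p = 0.233). The other Kupffer markers were not called, with log2 fold changes of -0.17 (*Adgre1*), -0.09 (*Clec4f*), -0.07 (*Cd5l*), 0.04 (*Vsig4*) and 0.12 (*Timd4*). The summed signal of the Kupffer list was 58.8 to 105 in WT and 48.4 to 80.9 in KO, and its part in the values of the members was not tested.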

How the data were processed

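Total RNA of frozen livers was labelled with Cy3 and hybridised to one-color arrays. For each array the authors deposited the output of Agilent Feature Extraction 10.7.1.1, whose processed signals are background-corrected fluorescence intensities. A table of log2 values was deposited as well and equalled the values computed here apart from a constant per array. The 75th percentile of the intensity was 261 to 309 per array and the median background 27 to 32, with 29888 to 31892 probes well above background. The number of arrays limits the precision.

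Control spots and outlier spots were left out, spots of a probe averaged, and the 75th percentile of each array was subtracted from its log2 signals. A probe was tested if all 4 arrays of a genotype showed it well above background, with limma (version 3.58.1; R version 4.3.3), moderated by eBayes, two-sided and with Benjamini-Hochberg adjustment. The thresholds are those of the study's volcano plot, which does not say whether p was adjusted. A gene was read from its brightest probe. Exact permutation tests used all 70 assignments of mice to genotypes, and for correlations all 40320 orders of 8 mice. The t test was an alternative only. Symbols came from RefSeq through transcript accessions (32994 of 56605 probes).

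The members and lists were chosen with earlier results of these data known. The text names every member, called genes of the droplet, regulator and PPARalpha lists, and *Pnpla2*, *Lipe*, *Hilpda*, *Hsd17b13*, *Dgat1*, *Dgat2*, *Bscl2*, *Ppara* and *Pparg*. *Lipa*, *Acsl3*, *Mogat1*, *Gpat4*, *Sqle*, *Rdh16* and *Hsd17b7* were added after their values were seen. The marker lists were of hepatocytes, white and brown adipocytes, stellate cells, Kupffer cells, endothelium, cholangiocytes and muscle, and the last 3 and the stellate list had 0 calls. Alternatives were other normalizations, background correction, filters, tests, thresholds and probe rules, a replicate block and leaving out each mouse. The labels do not say that mice came from separate litters, so p-values measure the spread between these samples.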

Additional observations from a re-analysis of the deposited data

How the results depend on the processing

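No member was called higher under any setting, and 0 were called lower except without WT replicate 4, where *Plin4* made it 1 (leaving out 1 mouse gave 0 to 1). Droplet genes called higher numbered 3, and 5 with normexp on the median spot signal, 5 at an unadjusted p under 0.2 and 2 to 5 when 1 mouse was left out. Of all genes, 225 were called higher and 177 lower, against 152 and 55 with normexp, 100 and 106 without a filter on dim probes, and 129 and 82 by the unpaired t test. Over 19 settings each, *Plin2*, *Plin3*, *Plin4* and *Plin5* kept their direction. Median centring turned *Cideb* to -0.0034 and *G0s2* to -0.027, and normexp turned *G0s2* to -0.036. Leaving out WT replicate 4 turned *Cidec* to -0.021, *Abhd5* to -0.0047 and *G0s2* to -0.15. *G0s2* was also below 0 without WT replicate 2 (-0.22), KO replicate 1 (-0.37) and KO replicate 4 (-0.035), and leave-one-out values of *G0s2* ran from -0.37 to 0.41, of *Cidec* from -0.021 to 0.29 and of *Abhd5* from -0.0047 to 0.33. The cause was not tested. Replicate numbers appear in both genotypes, but the labels do not say that they mark pairs, so the main fit took none. Deviations of same-numbered mice correlated at 0.33, -0.11, 0.10 and 0.32, and 5 of 8 mice correlated best with their own number. Whether same-numbered mice shared a condition was not tested. The median background of the arrays fell with the replicate number, at 32, 30, 29 and 27 in WT and 31, 29, 28 and 27 in KO. The part of this gradient in the values of the mice was not tested. With the replicate block 0 members and 3 droplet genes were called higher and 0 lower, beside 270 and 223 of all genes. These 3 were not the 3 of the main fit, since *Lss* was not among them. *Plin4* had a limma adjusted p of 0.280 with the block. The block brought the SE of *Abhd5* from 0.26 to 0.11 and of *Plin4* from 0.29 to 0.17. For *Plin3* it went from 0.098 to 0.099 and for *Cideb* from 0.059 to 0.066. *Lss* fell short with the block (0.205), without the filter (0.376) and by the t test (0.272), and *Srebf1* without the filter (0.377) and by the t test (0.269). Normexp brought the log2 values of *Pnpla3*, *Pnpla5* and *Slc2a4* from 3.59, 3.06 and 1.84 to 1.25, 1.60 and 0.56. It was run with an offset of 50 intensity units, which by itself shrinks log2 differences of dim probes. The part of the offset in these values was not tested. Fold changes of *Plin1* and *Cidea* are withheld, since neither was well above background on any array.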
